A study of Mus musculus with 2 samples.

Results

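The study set consisted of 10 mouse genes whose promoters carry DNA methylation on the chromosome from one parent only: Peg3, Snrpn, Mest, Kcnq1ot1, Peg10, Plagl1, Airn, Impact, Nnat and Grb10. They were chosen by name as classical imprinted genes, and all 10 were found among the 55450 genes of GENCODE release M21 on the mm10 mouse genome. The binding data came from CUT&Tag, in which an antibody directs a transposase to cut and tag DNA beside its target, here with anti-GFP against SRCAP fused to the fluorescent protein YPet. The single group consisted of 2 replicates of SYAT mouse embryonic stem cells (mESC), a line derived from CGR8 cells in which both Srcap alleles carry YPet and an auxin-inducible degron (AID) and the auxin receptor OsTir1 is expressed. The cells were in the control condition, with auxinole to block basal loss of SRCAP and without auxin, and had been moved to medium with serum and LIF before the experiment. Each assay used 200000 cells and 1 h of transposition. The deposited files were peak lists, one per replicate, so they held neither expression of stem cell markers to check the labelled cell type, nor DNA methylation, nor reads that tell the parental copies apart. Because there was 1 group, no comparison between conditions and no test was possible, and every value below is a description.

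SRCAP is the ATPase of a chromatin remodelling complex that places the histone variant H2A.Z in nucleosomes in exchange for H2A, and H2A.Z marks the nucleosomes beside many active and poised promoters. H2A.Z and DNA methylation are known to occupy largely separate parts of the genome. At an imprinted promoter both states are present in the same cell, because the zinc finger protein ZFP57, with TRIM28, preserves methylation of one parental copy while the other stays unmethylated.

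A peak in the promoter or gene body was listed in both replicates at 4 of the 10 genes, namely Peg3, Kcnq1ot1, Peg10 and Impact, where 7.43% of all annotated genes had one by the same rule. Gene length and gene type were not matched in that share. The stretches shared by the replicates at Peg3, Peg10 and Kcnq1ot1 are shown here because they are sequence under recurrent peaks, with the third Peg3 peak and the Airn peak of replicate 2 alone for comparison. Stretches over 300 bases were trimmed to the central 300. They were read from the GRCm38 (mm10) genome of RefSeq, 5′ to 3′ on the strand of the gene. Capitals mark 2 motifs, the ZFP57 hexamer TGCCGC and a YY1-like motif AANATGGCG, each on either strand, so that they also appear as GCGGCA and CGCCATNTT. The first 3 lines lie in intron 1 of Peg3, on the minus strand (chr7:6727641-6727876, chr7:6728508-6728807 and chr7:6729310-6729561). They are followed by intron 1 of Peg10, plus strand (chr6:4749078-4749319), the start of Kcnq1ot1, minus strand (chr7:143296474-143296773), and the Airn peak, plus strand (chr17:12742243-12742542).
Peg3 distal, both replicates: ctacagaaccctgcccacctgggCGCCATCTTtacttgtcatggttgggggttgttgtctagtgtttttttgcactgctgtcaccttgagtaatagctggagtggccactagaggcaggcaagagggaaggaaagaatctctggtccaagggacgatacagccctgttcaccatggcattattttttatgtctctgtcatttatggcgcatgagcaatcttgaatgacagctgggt
Peg3 central, both replicates: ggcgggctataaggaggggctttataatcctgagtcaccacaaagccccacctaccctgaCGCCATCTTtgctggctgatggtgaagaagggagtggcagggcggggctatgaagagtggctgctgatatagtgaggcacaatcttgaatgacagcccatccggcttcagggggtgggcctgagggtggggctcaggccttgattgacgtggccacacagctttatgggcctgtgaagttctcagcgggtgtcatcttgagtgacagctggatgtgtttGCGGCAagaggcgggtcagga
Peg3 proximal, replicate 2: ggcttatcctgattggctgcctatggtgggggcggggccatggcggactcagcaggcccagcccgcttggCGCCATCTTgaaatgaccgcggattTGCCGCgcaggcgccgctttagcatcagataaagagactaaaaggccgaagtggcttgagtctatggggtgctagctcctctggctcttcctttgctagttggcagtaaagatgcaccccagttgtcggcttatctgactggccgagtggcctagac
Peg10, both replicates: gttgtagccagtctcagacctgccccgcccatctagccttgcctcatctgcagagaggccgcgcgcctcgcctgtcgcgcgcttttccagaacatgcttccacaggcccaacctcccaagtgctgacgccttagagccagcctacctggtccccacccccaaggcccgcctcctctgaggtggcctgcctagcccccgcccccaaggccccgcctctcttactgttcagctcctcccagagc
Kcnq1ot1, both replicates: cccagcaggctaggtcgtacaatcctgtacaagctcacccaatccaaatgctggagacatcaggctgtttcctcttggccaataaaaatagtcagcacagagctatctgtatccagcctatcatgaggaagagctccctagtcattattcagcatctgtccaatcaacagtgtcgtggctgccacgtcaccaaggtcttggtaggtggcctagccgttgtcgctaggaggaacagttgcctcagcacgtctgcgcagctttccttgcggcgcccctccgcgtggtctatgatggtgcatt
Airn, replicate 2: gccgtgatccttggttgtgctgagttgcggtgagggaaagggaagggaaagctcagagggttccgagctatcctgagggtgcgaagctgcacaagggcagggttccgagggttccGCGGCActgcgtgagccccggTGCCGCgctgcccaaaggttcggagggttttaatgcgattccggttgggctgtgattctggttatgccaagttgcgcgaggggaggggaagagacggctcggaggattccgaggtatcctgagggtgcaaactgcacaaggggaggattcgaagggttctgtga
Each of the 3 Peg3 stretches held a YY1-like match, and in all of them it read as the reverse complement along the gene. The Airn stretch held 2 ZFP57 hexamers, whereas those of Peg10 and Kcnq1ot1 held neither motif. The recurrent stretch of Impact is not printed, and the peak of each replicate there held 2 hexamers.

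The list of replicate 1 held 6158 peaks with a median width of 327 bp, and that of replicate 2 held 12958 with a median of 365 bp. The score given to each peak rises with its significance and had a median of 32 in replicate 1 and 36 in replicate 2. Depth was not given in the lists, so a gene without a peak cannot be called unbound, and scores were compared only within a list. A gene was counted as having a promoter peak when a peak overlapped, by at least 1 bp, a window that began 1000 bp before any of its annotated transcription start sites (TSSs) and ended 500 bp after it. By this rule 3 of the 10 imprinted genes had a promoter peak in replicate 1 (Kcnq1ot1, Plagl1 and Impact), where 7.53% of all annotated genes did. In replicate 2 it was again 3 (Mest, Kcnq1ot1 and Impact), against 14.7% of all genes. Both replicates called 2, Kcnq1ot1 and Impact, beside 5.69% of all genes, and either replicate called 4, beside 16.5%. The share called in both replicates was 12.1% for protein-coding genes at large and 1 of the 8 protein-coding imprinted genes. With transcripts of the basic annotation set alone Impact dropped out, and with peaks scoring 50 or more none of the 10 genes was called in both replicates. The share of all genes called at that score was not computed.

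Promoter CpG content was set beside these counts, since CpG-rich promoters were bound more often than promoters at large. A window was called CpG-rich when its GC content was at least 55% and its ratio of observed to expected CpG at least 0.6. Such a window was present at any TSS of 5 of the 10 genes, namely Mest, Peg10, Plagl1, Impact and Grb10. Of these 5, 3 had a promoter peak in either replicate and 1 (Impact) in both. Across all 8432 genes with a CpG-rich window the shares were 52% in either and 20.3% in both, so these 5 lay near the background of like composition. Of the other 5 imprinted genes, without a CpG-rich window, 1 (Kcnq1ot1) had a promoter peak in both replicates, where 3.06% of all such genes did. That share was not a background of like composition. The principal window of Nnat, with a GC content of 54.16% and a ratio of 0.766, fell just short of the cut-off. Kcnq1ot1 had 104 CpG from its TSS to 3000 bp downstream, more than 91.6% of TSSs.

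Several peaks lay just beyond the promoter window, inside the gene. Peg3 and Peg10 had a peak in the gene body outside their promoter windows in replicate 1, which made 2 of 10 against 2.81% of all genes. In replicate 2 Airn joined them, giving 3 of 10 against 5.7% of all genes, though Airn was lost when that list was reduced by score to the length of the other. In all, 14 peaks lay at 7 of the 10 genes, where 20.9% of all genes had a promoter or gene body peak in either list, and Snrpn, Nnat and Grb10 had none in either list. Longer genes offer more room for a peak, and the spans of the 10 ran from 2445 bp (Nnat) to 157725 bp (Snrpn). Shares for protein-coding genes or for genes of like length were not computed for these gene body counts. The 6 peaks of replicate 1 were 242 to 448 bp wide with scores of 20 to 43, and 4 of the 6 scored above the median of that list. The 8 peaks of replicate 2 were 252 to 1229 bp wide with scores of 36 to 159, and 7 of the 8 scored above the median. The medians of promoter peaks alone were higher, 35 in replicate 1 and 42 in replicate 2, and fewer of these peaks exceeded them.

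**Figure D1:**
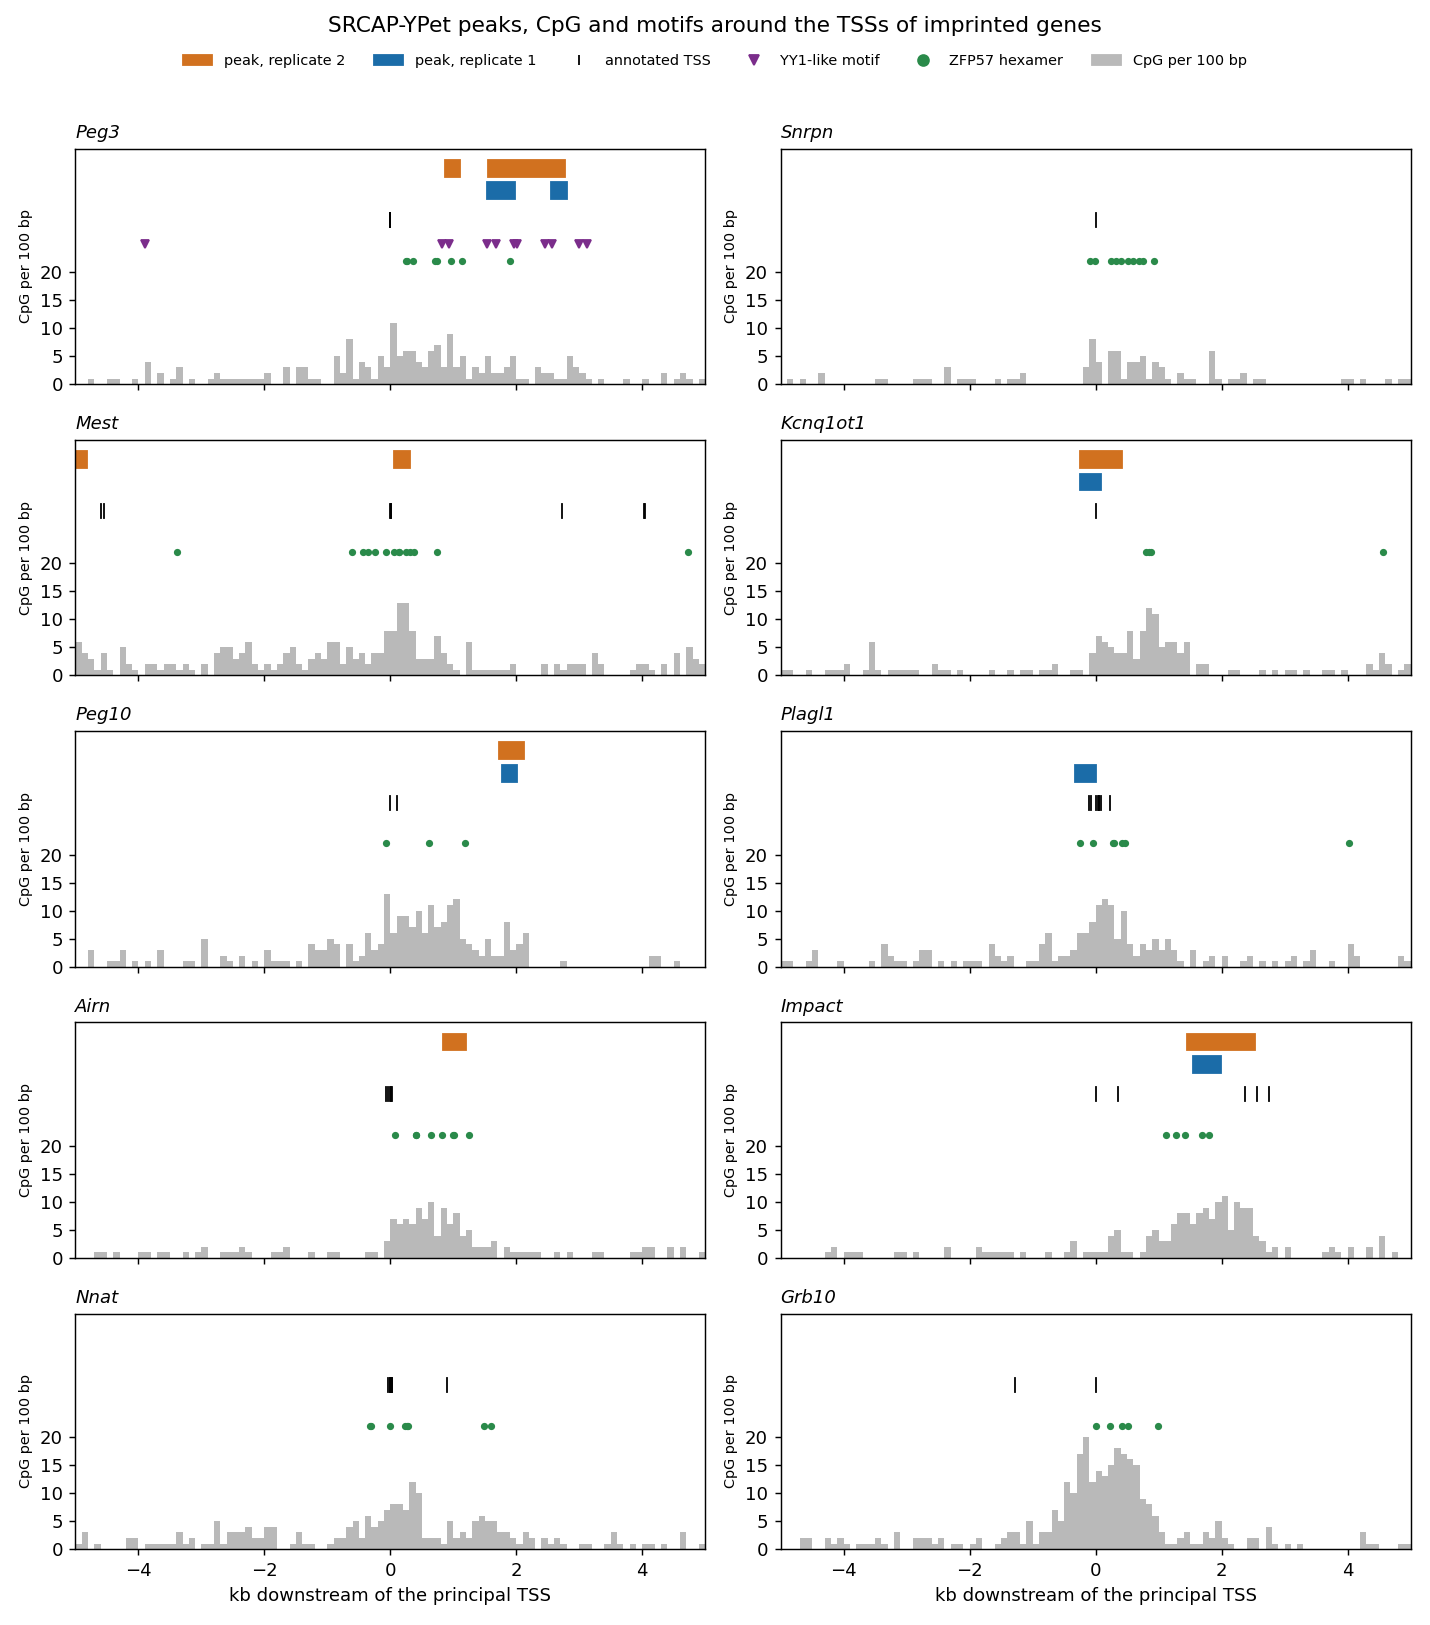
Each panel shows 1 imprinted gene, with the position in kb downstream of its principal TSS along its own strand on the x axis and CpG per 100 bp as grey bars on the y axis. Blue and orange bars are the peaks of replicates 1 and 2, black ticks are annotated TSSs, green dots ZFP57 hexamers and purple triangles YY1-like motifs, all placed above the bars without a scale of their own. The peaks at Peg3, Peg10, Airn and Impact lie downstream of the principal TSS, that of Kcnq1ot1 lies over it, and the panels of Snrpn, Nnat and Grb10 hold no peak.

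When the window was extended to 3000 bp downstream, a limit chosen after these positions had been seen, a peak was counted in both replicates at 4 genes (Peg3, Kcnq1ot1, Peg10 and Impact) and in either at 7. Across all annotated genes the longer window gave 6.26% in both and 18.6% in either, and among genes with a CpG-rich window 21.2% in both, where the imprinted genes had 2 of 5. Measured from the nearer edge of the peak, the promoter peak farthest from a TSS was that of Impact in replicate 1, at 389 bp, and the closest gene body peaks were those of Airn and Peg3 in replicate 2, at 811 and 858 bp.

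Peg3 encodes a zinc finger protein expressed from the paternal copy, and its first intron is known for clustered YY1 sites. In replicate 1 it had a peak of 448 bp with a score of 43 at chr7:6728447-6728894 and one of 254 bp with a score of 29 at chr7:6727623-6727876. The list of replicate 2 had a single peak of 1229 bp with a score of 38 that spanned chr7:6727641-6728869. It thus covered most of both peaks of replicate 1, overlapping them by 423 and 236 bp, and was wider than 99.7% of the peaks in its list. A further peak of 252 bp, also with a score of 38, lay closer to the TSS in replicate 2 only, at chr7:6729310-6729561.

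The Peg3 peaks coincided with an array of YY1-like matches. Between the TSS and 3000 bp downstream Peg3 held 9 such matches, all 9 in reverse orientation along the gene, and the other members of the set held 0. Of all 132668 TSSs with such a stretch 0.0219% had at least as many, and the 14 further genes they belonged to comprised 12 predicted genes with a Gm name, Mir101c and Vmn1r48. Within 5 kb of the Peg3 TSS, 7 of 11 matches were in a peak, 4 in peaks of replicate 1 and 6 in peaks of replicate 2. The wide peak of replicate 2 held 5 matches, which was reached by 0.193% of the peaks of that list, and the 448 bp peak of replicate 1 held 3, reached by 0.666% of its list. These shares favour wide peaks. Over the central 300 bp of every peak, the wide peak of replicate 2 held 0 matches and the other 3 Peg3 peaks held 1 each, reached by 7.16% of the list in replicate 1 and 6.25% in replicate 2. The match is a description of the sequence, and occupancy by YY1 was not measured.

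Kcnq1ot1 is the paternally expressed long noncoding RNA that runs antisense within Kcnq1 and silences neighbouring genes of its cluster. Its peak lay over the TSS at position 143296549 of chromosome 7 in both replicates. It was 334 bp wide with a score of 38 in replicate 1 (chr7:143296458-143296791) and 669 bp wide with a score of 65 in replicate 2 (chr7:143296129-143296797). The upstream borders of the pair were 6 bp apart, 242 bp and 248 bp upstream of the TSS, while the downstream border lay at 91 bp in replicate 1 and at 420 bp in replicate 2. The densest kilobase of CpG, with 69 of them from 500 to 1500 bp downstream, lay beyond the peak in both replicates. Neither motif was found in the peak of either replicate. The same peak lay in the promoter window of Gm37364, an unverified transcript whose TSS was 1149 bp away.

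Airn, the other noncoding RNA, starts in an intron of Igf2r, runs antisense to it and silences it on the paternal copy. It had no peak in replicate 1, where the nearest was 168.3 kb from its principal TSS. In replicate 2 a peak of 370 bp with a score of 36, the median of that list, lay at chr17:12742209-12742578 with its midpoint 1019 bp downstream of the principal TSS. It held 24 CpG at an observed to expected ratio of 0.81 and 2 ZFP57 hexamers. In replicate 2, 3.7% of peaks held at least 2 hexamers.

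Peg10, a gene derived from a retrotransposon and required in the placenta, had the highest score of the set within replicate 2, and tied with Peg3 in replicate 1. In intron 1, a peak of 242 bp scored 43 in replicate 1 (chr6:4749078-4749319), above 70.7% of that list. In replicate 2 the peak was 399 bp wide with a score of 159 (chr6:4749026-4749424), above 98.6% of its list, and contained the whole of the first. The midpoints lay 1892 and 1919 bp downstream of the principal TSS. Both peaks were beyond the densest kilobase of CpG, which held 90 of them between 100 and 1100 bp downstream.

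Impact encodes an inhibitor of the kinase GCN2, a sensor of amino acid supply. Its peak was 435 bp wide with a score of 34 in replicate 1 (chr18:12973475-12973909) and 1094 bp wide with a score of 87 in replicate 2 (chr18:12973368-12974461), wider than 99.4% of that list. Both lay in intron 1, with the nearer edge 1552 and 1445 bp downstream of the principal TSS. The promoter call at Impact therefore rested on internal TSSs of transcripts outside the basic annotation set. Unlike the peaks of Kcnq1ot1 and Peg10, those of Impact coincided with the densest kilobase of CpG, which held 84 of them between 1500 and 2500 bp downstream. The peak of replicate 1 lay within it and that of replicate 2 spanned it, and each held 2 hexamers. The principal promoter window itself was CpG-poor, with 19 CpG at an observed to expected ratio of 0.285.

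Mest, which encodes a hydrolase expressed from the paternal copy, was called in replicate 2 only. A peak of 259 bp with a score of 44 lay at chr6:30738108-30738366, from 53 bp downstream of a TSS and in exon 1 of a transcript. Its GC content was 72.6%, with 34 CpG at an observed to expected ratio of 1 and 5 ZFP57 hexamers, a number reached by 4 of the 12958 peaks of that list (0.0309%). A second peak, 379 bp wide with a score of 56 (chr6:30732863-30733241), lay 213 bp upstream of an alternative TSS. In replicate 1 the nearest peak was 158.5 kb from the principal TSS.

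Plagl1 encodes a zinc finger regulator of cell cycle and growth, and was called in replicate 1 only. Its peak of 332 bp at chr10:13090465-13090796 covered 3 TSSs and held 2 hexamers, but its score of 20 was above just 15.3% of the list. In replicate 2 the nearest peak was 82.0 kb from the principal TSS. Mest and Plagl1, the genes called by a promoter peak in a single replicate, had no peak nearby in the other list.

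**Figure D2:**
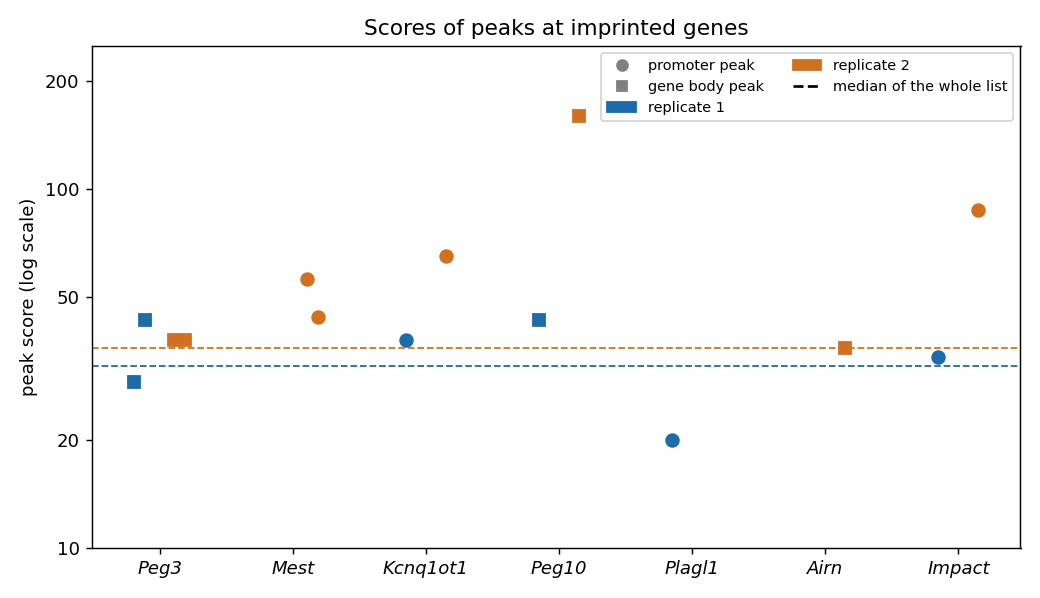
Points give the score of each peak at the imprinted genes on the y axis, by gene on the x axis, in blue for replicate 1 and orange for replicate 2, on a log scale, with circles for promoter peaks and squares for gene body peaks, and the dashed lines give the median score of each list (32 and 36). Within replicate 2 the scores run from 36 at Airn to 159 at Peg10, and within replicate 1 from 20 at Plagl1 to 43 at Peg3 and Peg10.

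No peak was listed at Snrpn, Nnat or Grb10. Snrpn encodes a splicing factor subunit expressed in neurons, and the nearest peak was 776.1 kb away in replicate 1 and 775.8 kb in replicate 2, at the promoter of Ube3a. For Nnat, which encodes the membrane protein neuronatin, the nearest peak was 280.7 kb away in replicate 1 and 71.7 kb in replicate 2. For Grb10, an adaptor that restrains insulin and growth factor signalling, it was 108.3 kb from the principal TSS in both.

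These 3 genes did not share a poor CpG content. The principal window of Grb10 had the highest CpG count of the set, 168 at an observed to expected ratio of 1.024 and a GC content of 66.42%, and that of Nnat held 84. Snrpn was lower, with 30 CpG and a GC content of 41.51%. An internal TSS of Grb10, at chr11:12026324, also had a CpG-rich window, with 123 CpG at a ratio of 0.87, and no peak. Which Grb10 window carries the parent-specific methylation was not measured. Over all 132670 promoter windows the median was 25 CpG and 49.2% GC. Across the 14 peaks, 6 overlapped the densest kilobase of CpG of their gene, 2 of 6 in replicate 1 and 4 of 8 in replicate 2.

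The ZFP57 hexamer, the sequence this protein binds when its CpG is methylated, was frequent throughout the set, with or without a peak. From the principal TSS to 3000 bp downstream there were 8 matches at Peg3, Snrpn and Airn, 7 at Mest, 5 at Impact, Nnat and Grb10, 4 at Plagl1, 3 at Kcnq1ot1 and 2 at Peg10. The median over all TSSs was 0 and the 95th percentile 2. Of the peaks, 3 of 6 in replicate 1 and 5 of 8 in replicate 2 held a hexamer, where 18.1% and 18.7% of all peaks in the lists did. Over the central 300 bp alone, which removes the advantage of wide peaks, it was 3 of 6 and 3 of 8, against 14.9% and 14.2% of the lists. The hexamer contains a CpG, and the median over all TSSs was 41 CpG in such a stretch. Snrpn, the lowest of the set, had 58 CpG, more than 67.7% of TSSs, with 8 hexamers, and Peg10 had 141 CpG with 2. Whether the CpG count accounts for the number of hexamers was not tested.

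**Figure D3:**
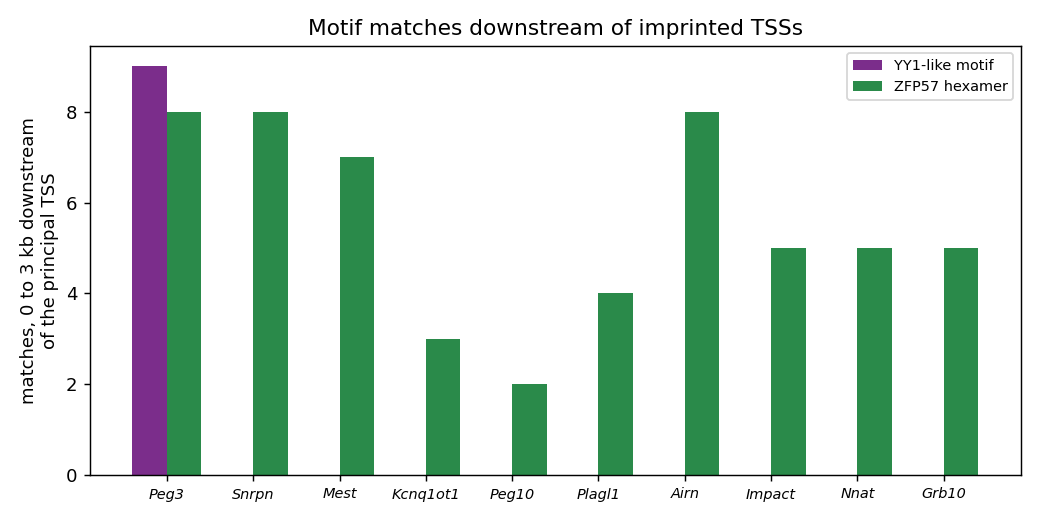
Bars starting at 0 give the number of motif matches on either strand from the principal TSS to 3 kb downstream (y axis) for each imprinted gene (x axis), green for the ZFP57 hexamer and purple for the YY1-like motif. Hexamers range from 2 at Peg10 to 8 at Peg3, Snrpn and Airn, and the 9 YY1-like matches are at Peg3.

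The remaining genes of the imprinted clusters gave a second view of the same lists. Of 60 other imprinted genes, 8 (13.3%) had a promoter peak in replicate 1, with a 95% Wilson interval for counting error of 6.91 to 24.2%, and 22 (36.7%, 25.6 to 49.3%) in replicate 2. The shares of all annotated genes were 7.53% and 14.7%. All 8 of replicate 1 were also called in replicate 2, so the share in both replicates was 13.3% as well. It lay near the 12.1% of protein-coding genes and above the 5.69% of all annotated genes. The 8 were Ube3a, Copg2, Tssc4, Calcr, Zrsr1, Commd1, Inpp5f and Trappc9. Zrsr1 and Commd1, which lies around it, shared a peak, and at Tssc4 the peaks of the replicates did not overlap each other. Scores in replicates 1 and 2 were 71 and 237 at Ube3a, a ubiquitin ligase expressed from the maternal copy in neurons, 41 and 121 at Copg2, the neighbour of Mest, and 79 and 115 at Inpp5f. A further 14 were called in replicate 2 only: Zim1, Magel2, Mkrn3, Nap1l4, Osbpl5, Ppp1r9a, Phactr2, Ddc, Gnas, Nespas, Nap1l5, Herc3, Mcts2 and Zdbf2. Nap1l5 and Herc3 were called by the same peak, so the 22 genes of replicate 2 do not stand for as many separate peaks.

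By cluster, 4 of the 37 genes that neighbour the 10 studied here had a promoter peak in both replicates, as did 4 of 23 elsewhere. The host or overlapping genes Kcnq1 and Igf2r had no promoter peak in either list, although their spans contain the peaks of Kcnq1ot1 and Airn. Of the 27 other imprinted genes with a CpG-rich window 18.5% were called in replicate 1 and 44.4% in replicate 2, and of the 33 without one 9.09% and 30.3%. All of those called in replicate 1 were called in both, so that the 18.5% lay near the 20.3% of all genes with a CpG-rich window. The 9.09% without one lay above the 3.06% of all genes without a CpG-rich window.

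**Figure D4:**
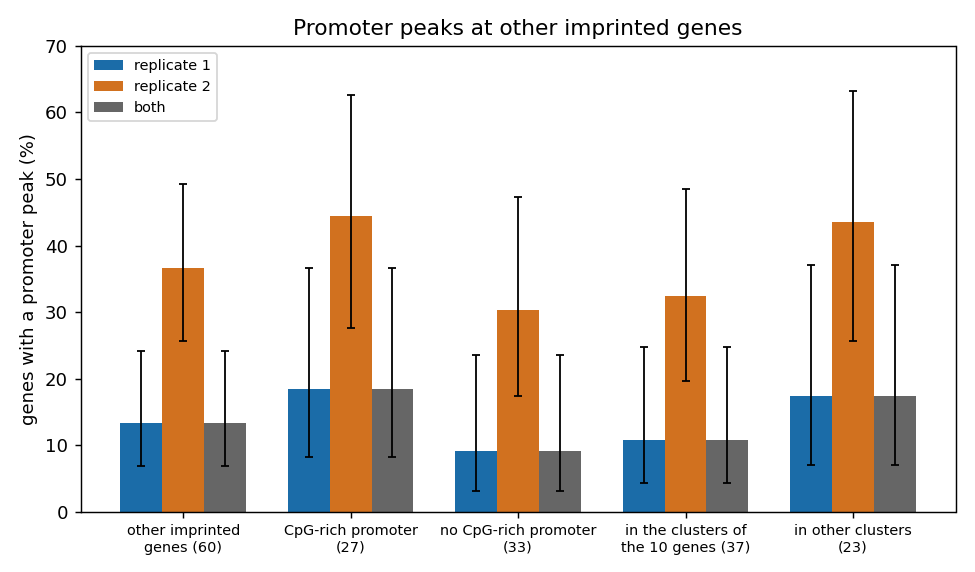
Bars starting at 0 give the percentage of other imprinted genes with a promoter peak (y axis) in replicate 1 (blue), replicate 2 (orange) and both (grey), for all 60 genes and for those with and without a CpG-rich window, inside and outside the clusters of the 10 genes (x axis), with 95% Wilson intervals. The bars of replicate 2 are the taller in each class, at 36.7% over all 60 genes against 13.3% in replicate 1, and the intervals of all classes overlap within a replicate.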

How the data were processed

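CUT&Tag was performed on 2 replicates of SYAT mESC, which form 1 group. Per the submitters' processing notes, STAR, Picard and MACS2 were used with the mm10 and dm6 (Drosophila spike-in) genomes. The study's methods describe duplicate removal, downsampling to equal spike-in reads and exclusion of blacklisted regions before or at peak calling, and a general command with an input control; which library served as control for CUT&Tag is not given in the sources used here. The deposited files list peaks per replicate with coordinates and a score, whose lowest value, 13, is 10 times −log10 of 0.05 when cut to a whole number. Peaks were called by the authors in each replicate separately. Reads were not used, so depth per sample is unknown.

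From these lists, peaks were intersected with GENCODE M21 TSS windows (1000 bp upstream, 500 bp downstream, at least 1 bp overlap) and gene spans in Python 3.11.15 with numpy 2.4.6, pandas 2.3.3 and scipy 1.17.1, and checked on simulated intervals. Motifs were exact matches on both strands of GRCm38. The principal TSS is that of the transcript tagged as principal isoform or, without one, the first-named transcript. Intervals (95%, Wilson) cover counting error only, and genes in a cluster are not independent. Replicates were, by the study's general statement, independent cultures. All 10 genes were named, with every gene sharing a peak with one, and every other imprinted gene with a promoter peak. The genes, lists and motifs were chosen with earlier results of these data known. Alternatives changed the window, overlap rule, annotation, peak assignment, score minimum, list length, repeat content, gene span and replicates.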

Additional observations from a re-analysis of the deposited data

How the results depend on the processing

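Of 68 alternatives over 7 counts, 56 left the count within 1.5 times its main value and 12 moved it. At counts this small, a fall from 3 genes to 2 stayed within that bound, so the 56 say little about stability. The 2 imprinted genes with a promoter peak in both replicates became 1 (Kcnq1ot1) when peaks were required to include a TSS, and 1 (again Kcnq1ot1) with basic transcripts only. With scores of 50 or more, 0 remained in both replicates and 0 in replicate 1, gene body peaks fell to 0 in replicate 1 and 1 (Peg10) in replicate 2, and 3 other imprinted genes (Ube3a, Commd1 and Inpp5f) were called in both. The window to 3000 bp downstream, added after seeing the data, gave 5 in replicate 1, 6 in replicate 2, 4 in both and 7 in either. With 1 replicate left out, the other imprinted genes called ranged from 8 to 22, the 22 being those of replicate 2. No paired analysis was possible because there was 1 group. With both lists at the length of the shorter, every promoter count kept its genes, Mest included, while the gene body peak of Airn in replicate 2 was lost, leaving 2. Depth is unknown, and its part in the calls was not tested.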

Other observations

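Beyond promoters, a few imprinted genes of the same clusters had peaks in their spans. Ndn, which encodes necdin and lies in the Snrpn cluster, had one in both replicates, 643 bp wide with a score of 25 at chr7:62348308-62348950 and 271 bp wide with a score of 32 at chr7:62348308-62348578. In the Peg10 cluster, Ppp1r9a had peaks with scores of 23 and 40 in replicate 1 and of 314 and 18 in replicate 2, and none of them recurred in the other list. Usp29, the neighbour of Peg3, had 1 in each replicate, with scores of 50 and 15, and these did not overlap.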
